A study of Mus musculus with 2 samples.

Results

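The cytochrome P450 genes outside the Cyp2b subfamily were followed in interscapular brown fat. They were every gene name on the array made of Cyp, a family number, a letter and a gene number, without the Cyp2b genes and without Cyp51. This gave 50 gene names of 38354 on the array, read by 61 of its 41534 probe spots, in 13 P450 families. The rule uses names only, though the set was proposed with earlier results of these data known. The tissue came from double-knockout mice (DKO) that lack Rora, a nuclear receptor gene, among the genes deleted, and from wild-type mice (WT). Both genotypes were male and C57BL/6, 4 mice each by the labels, aged 2 to 3 months and sampled near circadian time 20. DKO and WT RNA shared each of 2 Agilent arrays of the whole mouse genome, with DKO in Cy5 on one and in Cy3 on the other.

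P450 enzymes are heme proteins that insert oxygen into fatty acids, sterols, retinoids, steroids and foreign compounds. Enzymes of the endoplasmic reticulum take their electrons from the reductase Por, and those of mitochondria take them from ferredoxin. Families are defined by sequence likeness, and many members of families 1 to 4 are best known from liver, where nuclear receptors such as Ppara and the constitutive androstane receptor control them. Brown fat burns lipid for heat and oxidises large amounts of fatty acid.

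The promoters of 5 genes are shown because the results turn on them, and because Rora encodes a factor that binds the half-site AGGTCA. Cyp4b1 and Cyp2e1 were the highest and Cyp4v3 and Cyp26b1 the lowest of the genes whose arrays had the same sign, and Cyp2f2 was the next lowest. Each sequence is the 250 bases before the RefSeq start site of build GRCm38.p6, 5′ to 3′ on the gene's strand, with matches to the half-site, or to the TATA-box core TATAAA, on either strand in capitals.
Cyp4b1 chr4:115647722-115647971 (- strand): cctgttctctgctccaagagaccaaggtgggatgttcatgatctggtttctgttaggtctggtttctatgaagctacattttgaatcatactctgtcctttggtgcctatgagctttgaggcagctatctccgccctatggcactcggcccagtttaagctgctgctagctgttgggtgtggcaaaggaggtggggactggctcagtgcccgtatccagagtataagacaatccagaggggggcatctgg
Cyp2e1 chr7:140763569-140763818 (+ strand): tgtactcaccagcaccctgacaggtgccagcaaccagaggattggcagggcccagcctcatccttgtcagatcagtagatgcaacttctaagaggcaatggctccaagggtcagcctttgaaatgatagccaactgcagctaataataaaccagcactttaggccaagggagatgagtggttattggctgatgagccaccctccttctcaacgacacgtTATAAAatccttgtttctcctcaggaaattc
Cyp4v3 chr8:45333164-45333413 (- strand): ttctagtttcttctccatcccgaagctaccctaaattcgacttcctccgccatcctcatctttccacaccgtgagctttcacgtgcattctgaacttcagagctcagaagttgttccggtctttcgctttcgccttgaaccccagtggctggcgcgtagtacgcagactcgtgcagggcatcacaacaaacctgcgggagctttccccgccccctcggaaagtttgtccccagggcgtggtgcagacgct
Cyp26b1 chr6:84593811-84594060 (- strand): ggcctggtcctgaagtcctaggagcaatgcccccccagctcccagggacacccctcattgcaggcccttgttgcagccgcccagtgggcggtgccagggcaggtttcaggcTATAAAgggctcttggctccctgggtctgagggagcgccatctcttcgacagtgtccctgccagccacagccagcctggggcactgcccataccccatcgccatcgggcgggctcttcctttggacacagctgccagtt
Cyp2f2 chr7:27119705-27119954 (+ strand): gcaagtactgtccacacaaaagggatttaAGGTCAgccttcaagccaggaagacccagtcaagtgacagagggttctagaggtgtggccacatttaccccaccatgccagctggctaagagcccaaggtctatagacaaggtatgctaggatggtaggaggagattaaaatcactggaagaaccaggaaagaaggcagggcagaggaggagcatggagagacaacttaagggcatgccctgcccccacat
The half-site, counted on either strand, was found in 10 of 48 promoters of the P450 genes outside Cyp2b (20.8%), against 4607 of all 32851 promoters (14.0%). In the sequences printed above only that of Cyp2f2 held it, at bases −221 to −216. The other P450 genes with it were Cyp11a1, Cyp19a1, Cyp2c29, Cyp2c39, Cyp2j5, Cyp3a11, Cyp3a25 and Cyp3a44. Of these, Cyp2j5 and Cyp3a44 were not well above background, and the mean log2 DKO/WT of the rest ran from −0.02 to 0.07. Any link between the half-site and the loss of Rora was not tested. The TATA-box core was found on either strand in 21 of the 48 P450 promoters (43.8%), against 12.4% of all promoters. It lay at −31 to −26 in Cyp2e1 and at −139 to −134 in Cyp26b1, and these letters were not in the windows of Cyp4b1, Cyp4v3 or Cyp2f2. The 48 promoters belong to 40 of the genes, and a match is a description of letters, not a binding site.

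Of the 50 P450 genes, 49 had a probe in use on both arrays. The remaining gene, Cyp27a1, a mitochondrial sterol hydroxylase, has 1 spot, which was marked non-uniform on the array with DKO in Cy3. Its log2 ratio on the array with DKO in Cy5 was 0.09. A gene was taken as measured where both arrays put at least one genotype well above background. That held for 41 of the 49 P450 genes (83.7%), against 79.7% of all gene names. All 4 channels were well above background for 36 of the 49 (73.5%), against 76.2% of all gene names. The 8 P450 genes not measured were Cyp2a12, Cyp2j5, Cyp3a13, Cyp3a44, Cyp4a10, Cyp4f14, Cyp4f15 and Cyp7b1, the last an oxysterol hydroxylase. No P450 spot was saturated.

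Each genotype had 1 replicate, since both arrays were taken as one pair of RNA preparations in reversed dyes, so no test between genotypes was possible. Each ratio given as a mean ± SD is log2 DKO/WT averaged over the arrays (n = 2 arrays). Its SD holds dye effects and measurement error. The labels do not say whether the arrays shared extracts or whether mice were pooled, so whether it also holds any spread between mice is unknown. Rora itself read −0.38 ± 0.04, and −0.96 in the scanner software's own ratios. A second measured probe of Rora read −0.47 ± 0.10, and −1.52 in those ratios. The deleted stretch of the gene was not given in the sources used here, so its probes may lie outside it. In bulk tissue, fewer cells of a type and less RNA per cell cannot be told apart.

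No P450 gene outside Cyp2b passed the size rule in either direction. That rule asked for a mean of at least 2-fold, at least 1.5-fold the same way on each array, and a signal well above background in the higher genotype. Over all 30443 measured gene names it called 30 higher in DKO (0.0985%) and 7 lower (0.023%). A count of 0 among 41 genes therefore lies near what that background gives. The median of the 41 P450 genes was 0.0082, beside 0.0024 for all measured gene names. The mean ratio lay within 0.1 of 0 for 32 of the 41 genes (78.0%), against 83.4% of all measured gene names. These shares include dim probes, whose ratios the processing shrinks towards 0. At an average log2 intensity of 7.5 or above, 9 of 15 P450 genes (60.0%) lay within 0.1, against 71.7% of all such gene names.

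**Figure D1:**
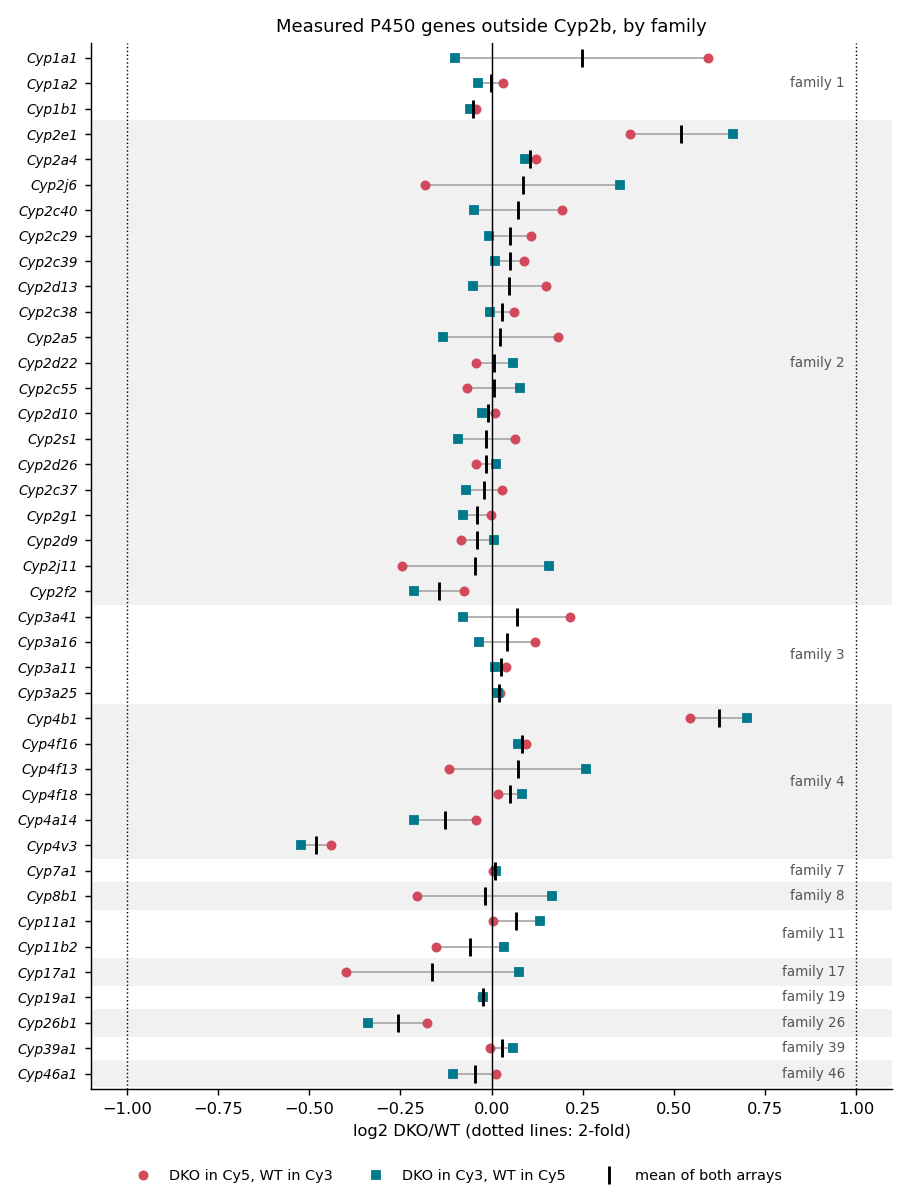
Log2 DKO/WT (horizontal axis) of the 41 measured P450 genes, grouped by P450 family. Circles are the array with DKO in Cy5, squares the array with DKO in Cy3, and bars their mean. Most means lie within 0.1 of 0, Cyp4b1 and Cyp2e1 stand at the high end, and Cyp4v3 stands at the low end. The WT signal of Cyp11a1 was not well above background.

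Family 4, which holds fatty acid hydroxylases, spanned the full range of the P450 genes, with 6 of its 9 genes measured between −0.48 and 0.62 and a median of 0.0611. Its highest member was Cyp4b1, which hydroxylates fatty acids and activates the plant and fungal toxin ipomeanol. The normalised log2 intensity of Cyp4b1 was 9.04 and 9.26 in DKO, against 8.50 and 8.56 in WT, so both DKO values lay above both WT values. Genes picked for an extreme mean with 1 sign on both arrays tend to separate in this way. For this and the genes below, the share of all measured gene names that do so was not counted, so such separation is a description only. The ratios of 0.55 and 0.70 gave 0.62 ± 0.11, which is 1.54-fold. Under a rule that asked for 1.5-fold in the mean and a smaller change the same way on each array, Cyp4b1 was the only P450 gene called higher, while 0.328% of all measured gene names were. No P450 gene was called lower by that rule, against 0.233% of all measured gene names. The scanner software's error model knows the measurement error of a single array only, and it gave Cyp4b1 deposited p-values of 0.000349 and 5.09e-06.

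Cyp4v3, the mouse counterpart of the human fatty acid hydroxylase CYP4V2 that is mutated in Bietti crystalline dystrophy, had the lowest value of the 41. Its log2 intensity was 6.51 and 6.68 in DKO, against 6.95 and 7.20 in WT, so both DKO values lay below both WT values. The ratios of −0.44 and −0.52 gave −0.48 ± 0.06, a level 1.40-fold higher in WT. Cyp4v3 is dim, and the offset added before taking logs shrinks ratios of dim probes. The scanner software's ratios, without that offset, gave −0.94 ± 0.03, a level 1.91-fold higher in WT. Its deposited error-model p-values were 0.000231 and 3.91e-05. A p under 0.01 on both arrays in the same direction was met by Cyp4v3 alone for lower (0.411% of all measured gene names) and by Cyp4b1 alone for higher (0.503%).

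The other members of family 4 stayed closer to 0. Cyp4a14, a fatty acid omega-hydroxylase and a classic target of Ppara in liver, had a log2 intensity of 7.90 and 7.79 in DKO and of 7.94 and 8.00 in WT. Both DKO values were below both WT values, and the ratio was −0.13 ± 0.12. Cyp4a10, its close relative, was not well above background on both arrays in either genotype. Ppara itself read 0.61 ± 0.04, with log2 intensities of 9.11 and 9.26 in DKO against 8.48 and 8.68 in WT. In the Cyp4f group, Cyp4f16 read 0.08 ± 0.02, Cyp4f13 read 0.07 ± 0.27 and Cyp4f18, which inactivates leukotriene B4 in mouse neutrophils, read 0.05 ± 0.05.

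**Figure D2:**
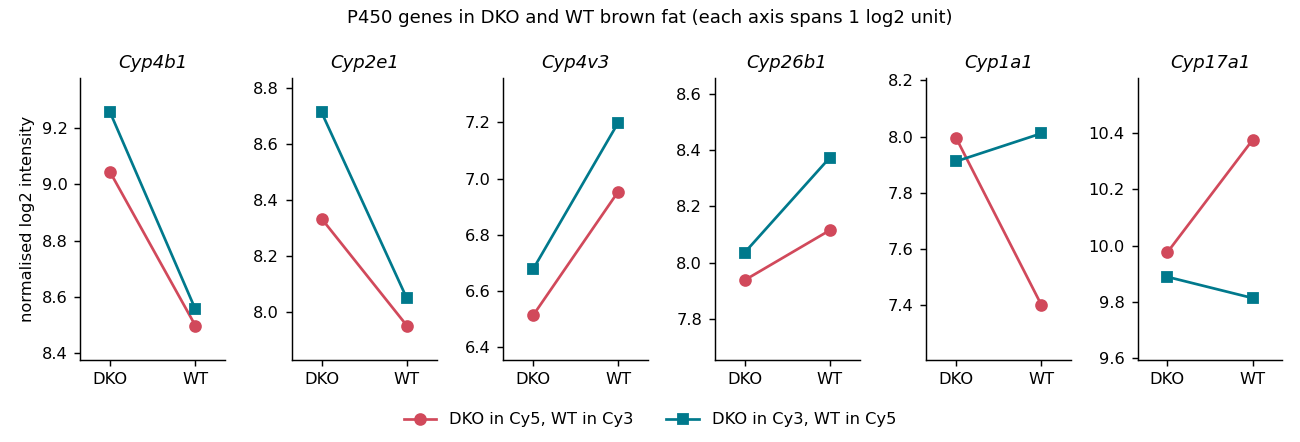
Normalised log2 intensity (vertical axes, each 1 log2 unit tall) of 6 P450 genes in DKO and WT, with a line for each array. Cyp4b1 and Cyp2e1 are higher in DKO on both arrays, Cyp4v3 and Cyp26b1 are lower in DKO on both, and the lines of Cyp1a1 and Cyp17a1 slope opposite ways.

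Family 2 is the largest, with 19 of 21 genes measured, a median of 0.0070 and a range from −0.14 to 0.52. Its highest member was Cyp2e1, the ethanol- and acetone-oxidising P450. Cyp2e1 had a log2 intensity of 8.33 and 8.71 in DKO, against 7.95 and 8.05 in WT. Both DKO values exceeded both WT values, and the ratios of 0.38 and 0.66 gave 0.52 ± 0.20, which is 1.43-fold. The deposited error-model p-value was 0.0101 with DKO in Cy5 and 5.55e-06 with DKO in Cy3, so Cyp2e1 missed the 0.01 rule on 1 array.

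The remaining family 2 genes lay between −0.14 and 0.11. The 6 Cyp2c genes, drug- and fatty-acid-oxidising enzymes of liver, ran from −0.02 to 0.07, and 5 of them had opposite signs on the 2 arrays. The 5 Cyp2d genes ran from −0.04 to 0.05, and each had opposite signs on the 2 arrays. Cyp2c37, which has 2 measured probes, read −0.02 ± 0.07 on one and 0.03 ± 0.02 on the other. Cyp2c39 read 0.05 ± 0.06 and Cyp2d9 read −0.04 ± 0.06. Cyp2j6 read −0.18 with DKO in Cy5 and 0.35 with DKO in Cy3.

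Several family 2 genes share a chromosome 7 cluster with Cyp2b, so their values can be set beside it. In RefSeq order the cluster genes with a probe in use run Cyp2s1, Cyp2b10, Cyp2b13, Cyp2b9, Cyp2a4, Cyp2b19, Cyp2g1, Cyp2a5, Cyp2a12 and Cyp2f2. The genes outside Cyp2b read −0.01 ± 0.11 for Cyp2s1, 0.11 ± 0.02 for Cyp2a4, −0.04 ± 0.05 for Cyp2g1, 0.02 ± 0.22 for Cyp2a5 and −0.14 ± 0.10 for Cyp2f2. Their Cyp2b neighbours read 2.39 ± 0.09 for Cyp2b9, 1.76 ± 0.40 for Cyp2b13, 0.81 ± 0.34 for Cyp2b10 and −0.0026 ± 0.11 for Cyp2b19. Cyp2a4, a steroid hydroxylase whose gene follows Cyp2b9 in that order, had a log2 intensity of 6.40 and 6.46 in DKO, against 6.28 and 6.37 in WT. Cyp2a4 read 0.38 in the scanner software's ratios. Cyp2f2, which activates naphthalene in mouse lung, had a log2 intensity of 6.79 and 6.85 in DKO, against 6.87 and 7.07 in WT. Both of its DKO values lay below both WT values, and its software ratio was −0.27. Cyp2b9, Cyp2b13 and Cyp2b19 each have a second probe, at 0.52 ± 0.25, 0.06 ± 0.09 and 0.08 ± 0.08. Cyp2b20, a name not placed in that order, read 1.51 ± 0.46. Probes of near-identical P450 genes may not tell them apart.

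**Figure D3:**
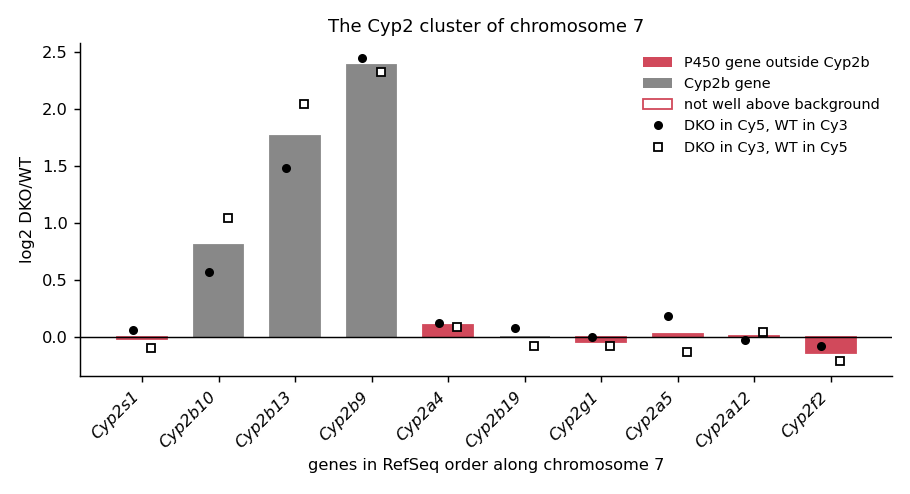
Log2 DKO/WT (vertical axis) of the Cyp2 genes of chromosome 7 with a probe in use, in RefSeq order. Columns are means of both arrays, circles the array with DKO in Cy5 and squares the array with DKO in Cy3. The genes outside Cyp2b, in red, lie between −0.14 and 0.11, while Cyp2b10, Cyp2b13 and Cyp2b9 lie between 0.81 and 2.39.

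Family 3, which in mouse liver clears steroids and drugs, had 4 of 6 genes measured. Its values ran from 0.0205 to 0.0686, the narrowest span of the families with at least 3 measured genes. Cyp3a11, a main hepatic member, read 0.02 ± 0.02. Cyp3a41 read 0.07 ± 0.21 and Cyp3a16 read 0.04 ± 0.11, each with opposite signs on the 2 arrays.

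Family 1 contains the targets of the aryl hydrocarbon receptor, and 3 of 3 genes were measured, with a median of −0.0028. Cyp1a1, which oxidises aromatic hydrocarbons, had the largest gap between arrays of the 41 P450 genes, at 0.69. Its log2 intensity was 8.00 and 7.91 in DKO and 7.40 and 8.01 in WT, so 3 of 4 values were alike and 1 WT value stood below them. The ratios of 0.59 and −0.10 gave 0.25 ± 0.49. Cyp1a2 read −0.0028 ± 0.05, and the receptor gene Ahr read 0.02 ± 0.02. Cyp1b1 read −0.05 ± 0.01 on a probe that was well above background in DKO on only 1 array. Its second measured probe read −0.02 ± 0.17, with opposite signs on the 2 arrays.

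Among P450 genes of hormone and retinoid metabolism, Cyp26b1, which clears retinoic acid, was the second lowest of the 41. Its log2 intensity was 7.94 and 8.03 in DKO, against 8.11 and 8.37 in WT. Both DKO values lay below both WT values, and the ratio was −0.26 ± 0.11. The deposited error-model p-value was 0.19 with DKO in Cy5 and 0.00876 with DKO in Cy3.

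The steroid-making P450 genes showed no shared direction. Cyp17a1, an enzyme of glucocorticoid and androgen synthesis, had log2 intensities of 9.98 and 9.89 in DKO, and of 10.38 and 9.81 in WT. The genotypes overlapped, and the ratios of −0.40 and 0.08 gave −0.16 ± 0.34. Cyp11a1, which starts steroid synthesis from cholesterol, was well above background in DKO on both arrays and in WT on neither. The ratios of Cyp11a1, 0.003 and 0.13, gave 0.07 ± 0.09, and its mean log2 intensity was 6.26 in DKO and 6.19 in WT. Its deposited error-model p-values were 0.593 and 0.433, so no rise in DKO can be read from it. Aldosterone synthase Cyp11b2 read −0.06 ± 0.13, and aromatase Cyp19a1 read −0.02 ± 0.0014.

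The mean ratios of the 4 measured sterol-clearing P450 genes lay near 0. Cyp7a1, the rate-limiting enzyme of bile acid synthesis, had a log2 intensity of 8.04 and 7.67 in DKO, against 8.04 and 7.66 in WT, and read 0.0082 ± 0.0049. The sterol hydroxylase Cyp8b1 read −0.02 ± 0.26, with opposite signs on the 2 arrays. Cyp8b1 was well above background in WT on only 1 array, and its software ratios were −0.76 and 0.82, so its mean tells little. The brain cholesterol hydroxylase Cyp46a1 read −0.05 ± 0.08, and the oxysterol hydroxylase Cyp39a1 read 0.03 ± 0.04.

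Signs on the 2 arrays were compared for the whole set. Of the 41 P450 genes, 10 were above 0 on both arrays (24.4%), 7 were below 0 on both (17.1%) and 24 had opposite signs. Of all measured gene names, 19.4% were above 0 on both arrays and 17.8% were below 0 on both. Across the 41 genes Pearson's r between arrays was 0.37 and Spearman's rho was −0.12, as descriptions over genes read on the same 2 arrays. Without Cyp4b1, Cyp2e1, Cyp4v3 and Cyp26b1, r was −0.46 and rho was −0.47 over the other 37 genes. Those 4 were picked as the highest and lowest means with the same sign on both arrays. Leaving them out was therefore bound to lower r, and nothing about those genes is concluded from the fall. Over all 30443 measured gene names r was −0.02 and rho was −0.29.

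**Figure D4:**
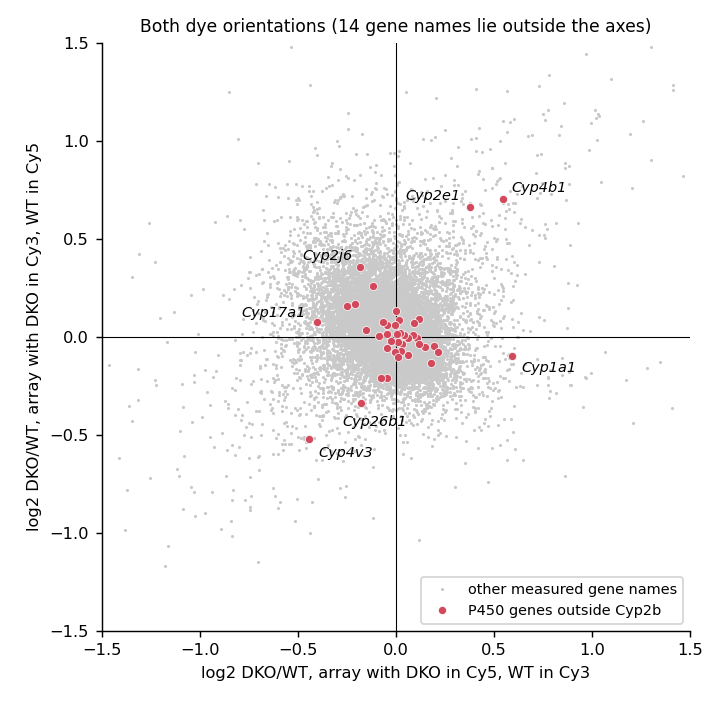
Log2 DKO/WT with DKO in Cy5 (horizontal axis) against log2 DKO/WT with DKO in Cy3 (vertical axis), for the P450 genes outside Cyp2b in red and all other measured gene names in grey, 14 of which lie outside the axes. Cyp4b1 and Cyp2e1 lie in the upper right, Cyp4v3 and Cyp26b1 in the lower left, and Cyp1a1, Cyp17a1 and Cyp2j6 lie off that diagonal.

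For 8 P450 genes several probes were measured. The probes of such a gene differed by a median of 0.0313 and by at most 0.145. The largest difference was that of Cyp2d22, whose 3 probes read −0.10 ± 0.07, 0.0070 ± 0.07 and 0.05 ± 0.16.

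The scanner software's ratios kept the order at both ends of the set. They gave 0.70 ± 0.13 for Cyp4b1 and 0.62 ± 0.26 for Cyp2e1, and −0.34 ± 0.16 for Cyp26b1. The dim probes of Cyp4v3 and Cyp2a4 moved more, to −0.94 in place of −0.48 and to 0.38 in place of 0.11. Cyp11a1, not well above background in WT, moved to 0.44 in place of 0.07. With these ratios the 2-fold size rule again called no P450 gene in either direction, while it called 0.184% of all measured gene names higher and 0.0985% lower.

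**Figure D5:**
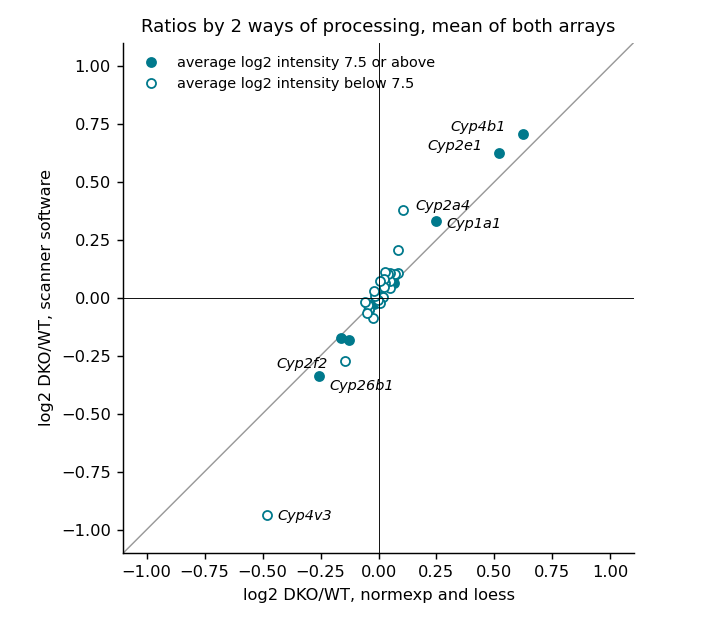
Mean log2 DKO/WT of 40 measured P450 genes after normexp and loess (horizontal axis) against the scanner software's ratios (vertical axis), with the line of equality. Cyp11a1, whose WT signal was not well above background, is left out. Filled circles have an average log2 intensity of 7.5 or above and open circles lie below it. Cyp4v3 (−0.48 against −0.94) and Cyp2a4 (0.11 against 0.38) lie farthest from the line.

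The proteins that serve P450 enzymes were examined from lists chosen with earlier results of these data known. Of 6 measured genes of electron transfer, none passed the size rule. The reductase gene Por read 0.25 ± 0.08, with log2 intensities of 11.48 and 11.55 in DKO against 11.29 and 11.25 in WT. Both DKO values lay above both WT values for Por, and the same held for Pgrmc1, a heme-binding P450 partner, at 0.24 ± 0.06. The mitochondrial donor ferredoxin, Fdx1, read −0.11 ± 0.01, and both of its DKO values lay below both WT values. Of the 6 genes, 2 had positive ratios on each array, 2 had negative ratios on each and 2 changed sign. Among all measured gene names, 19.4% had positive ratios on each array and 17.8% had negative ones. Dia1, the older symbol of the cytochrome b5 reductase gene Cyb5r3, read −1.05 with DKO in Cy5 and 0.21 with DKO in Cy3.

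Heme supply, on which every P450 depends, was read by 10 measured genes with a median of 0.0433, and none passed the size rule. Alas1, the rate-limiting enzyme of heme synthesis, read −0.25 ± 0.26, and its erythroid form Alas2 read −0.23 ± 0.36. Urod read 0.15 ± 0.25 and Uros read 0.13 ± 0.14. Of 19 measured regulators of P450 genes, none passed the size rule, and their median was 0.0519. After Ppara, the largest values were 0.27 ± 0.46 for the oxysterol receptor Nr1h3, 0.22 ± 0.47 for Nr5a1 and 0.21 ± 0.39 for Rxrg, each with opposite signs on the 2 arrays. The constitutive androstane receptor gene Nr1i3, the classic regulator of Cyp2b in liver, read −0.02 ± 0.08.

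Markers of the tissue and of its neighbours were read beside these values. Of 7 measured brown adipocyte markers, 6 were above 0 on both arrays, Cidea was below 0 on both, and only Dio2 and Elovl3 passed the size rule. Cidea had saturated spots, and the summed intensity of the other 6 was 68813 and 71665 in DKO, against 51421 and 48593 in WT. No skeletal muscle marker passed the size rule. For the 5 measured the median was 0.65 and the summed intensity was 7186 and 8525 in DKO, against 5295 and 4636 in WT. Of these 5, 4 were above 0 on both arrays, and all 5 were well above background in both genotypes. Both sums were higher in DKO on each array, as Cyp4b1 and Cyp2e1 were. The same held for hepatocyte markers and for macrophage markers, the latter at 1921 and 1681 in DKO against 1670 and 1615 in WT. The sum of endothelial markers was lower in DKO on each array, but the 4 genes did not share that direction. Of them, 2 were above 0 on both arrays and 1 had opposite signs. Only Kdr, the brightest, was below 0 on both, at −0.20 ± 0.02. The part of any of these cell types in the values of Cyp4b1 and Cyp2e1 was not tested. The 6 measured hepatocyte markers had a median of 0.0237 and a summed intensity of 1230 and 1434 in DKO and of 1225 and 1380 in WT. Of these 6, 2 were above 0 on both arrays, 1 was below 0 on both and 3 had opposite signs. Albumin, named Alb1 in the file, read 0.18 ± 0.04, and the similarly bright Ahsg read −0.10 ± 0.03. The 5 measured markers of steroid-making cells, Cyp11a1 among them, had a median of 0.0234. Markers of all adipocytes, macrophages and endothelium had medians of −0.0592, 0.0573 and −0.0298.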

How the data were processed

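RNA of interscapular brown fat from DKO and WT mice was amplified, labelled with Cy3 or Cy5 and hybridised for 17 hours, 750 ng of cRNA per dye, per the labels' protocols. Images were read by the authors in Agilent Feature Extraction 7.5, per the submitters' processing notes. Each spot has its mean, its median and its local background deposited as linear intensity without normalisation, per the file headers. The software's log10 ratio of red over green and the p-value of its error model were used as deposited. Log2 ratios make up the deposited series table, with a median of 0 on each array, that matched the software's ratios within 0.001 for 40962 of 41001 and 41101 of 41141 probes. The steps behind that table were not given in the sources used here.

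For each array, normexp (offset 50) was applied to the mean signals, and then loess (limma 3.58.1, R 4.3.3), where control spots had weight 0. The sign was turned so that every ratio is DKO over WT, and both arrays were averaged. Outlier spots were left out, and a gene was read by its measured probe of highest average intensity. Median mean signals ran from 107 to 130 over local backgrounds of 57 to 72, and 77.6% to 85.4% of probe spots were well above background. The number of arrays limits the precision. Of the 61 P450 probes, 50 matched a RefSeq accession of GRCm38.p6, which also gave the promoters, and the others kept the name in the file.

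The P450 genes and the lists were chosen with earlier results of these data known. Named genes were the 8 highest and 8 lowest (as far as there were that many) with 1 sign on both arrays, the 2 brightest of each family, the gene with the largest gap between arrays, called genes, the 4 largest values of each partner list and Rora. Cyp2j6, Cyp4f13, Cyp2a5, Cyp2s1, Cyp2d22, Nr1i3, Ahr, the Cyp2b genes, Alb1, Ahsg and Kdr were named after their values were seen. Alternatives changed the background offset, the signal (median for mean), the normalisation (median centring, or loess on probes above background), the filter on dim probes, the choice of probe and the size thresholds. Others took the software's ratios, its error model, the value table, or 1 array alone. Calculations used Python 3.11.15, pandas 2.3.3, numpy 2.4.6 and matplotlib 3.10.9.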

Additional observations from a re-analysis of the deposited data

How the results depend on the processing

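The P450 genes called higher in DKO numbered 1 with the 1.5-fold rule and 1 by the software's error model, and those called lower numbered 1 by the error model. Under every other alternative run, both counts were 0. The median of the P450 genes was 0.0285 both in the software's ratios and in the value table, 0.0497 with median centring (all gene names: 0.0430), 0.0143 where both genotypes had to be above background and 0.0054 over all probes of a gene, and the cause of these shifts was not tested. Either array alone gave 0.0075 to 0.0092. The median of family 1, −0.0028 in the values reported, turned to 0.0315 with median spot signals, to 0.0318 with DKO in Cy5 alone and to 0.1221 where both genotypes had to be above background. That of family 4 turned to −0.0285 with DKO in Cy5 alone, and that of family 2 turned to −0.0039 with DKO in Cy3 alone. Over 11 alternatives the sign held for Cyp4b1, Cyp2e1, Cyp4v3 and Cyp26b1, and also for other named genes such as Cyp2f2 and Cyp4a14. These genes were picked for having 1 sign on both arrays, so either array alone could not turn it. The filters on dim probes left their ratios unchanged, so these alternatives do not test the sign. With both arrays Cyp4b1 ran from 0.62 to 0.74 and Cyp2e1 from 0.50 to 0.62. Cyp4v3 ran from −0.94 to −0.47 and Cyp26b1 from −0.34 to −0.16. Every ratio pairs DKO with WT on its own array, so no unpaired fit was set beside it. With 1 replicate per genotype, the spread between mice is unknown, and dim probes such as that of Cyp4v3 depend on the background correction.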
